A study of Rattus norvegicus with 16 samples.

Results

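The genes described are 10 markers of thalamic and hypothalamic neurons: Slc17a6, Tcf7l2, Lef1, Prox1, Shox2, Zic1, Zic2, Zic4, Sim1 and Otp. They were chosen by name, with earlier results of these data known. They come from the 33294 genes of a table of read counts over 16 RNA-seq libraries of rat brain. Each library held poly(A) RNA of tissue labelled as central amygdala, the output nucleus of the amygdala, taken from an adult rat that had been exposed to fentanyl, an opioid, or to saline around birth. The tissue was taken 1 day after the last of a set of sessions, abbreviated IVSA, that both exposure groups share. In males 6 fentanyl libraries stood against 6 of saline, and in females 2 against 2, which gives 8 libraries for each exposure. The labels used here name no strain, no age in days and no litter, so the p-values measure the spread between these libraries, of which some may share a litter.

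Thalamus, habenula and hypothalamus arise from the diencephalon, whereas the central amygdala arises from the telencephalon and is built mostly of GABA neurons. Slc17a6 encodes VGLUT2, the transporter that loads glutamate into synaptic vesicles in most thalamic and hypothalamic excitatory neurons, and in a part of the medial amygdala. Tcf7l2 and Lef1 encode related DNA-binding proteins that act with beta-catenin at the end of the Wnt pathway. Prox1 and Shox2 encode homeobox proteins, the Zic genes encode zinc finger proteins of the dorsal midline, and Sim1 and Otp encode proteins needed to form neuroendocrine neurons of the hypothalamus, as known from mice. Several of these genes have other sources in the brain: Tcf7l2 is found in oligodendrocytes that are starting to make myelin, Prox1 in the oligodendrocyte lineage, dentate granule cells and some cortical interneurons, Lef1 in brain endothelium, and Zic1 in neurons of the septum and basal forebrain.

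Libraries held between 12879701 and 22426428 counted reads. Levels are given as CPM, which is reads per library made comparable through TMM scaling. They are compared for 1 gene between libraries but not ranked between genes, since CPM takes no account of gene length. An average under 1 CPM is used below to mark genes with few reads, whatever their length. Telencephalic GABA neuron genes were high in every library, with summed levels of their 10 listed genes between 1147 and 1882 CPM in fentanyl libraries and between 1265 and 1908 CPM in saline libraries. Saline male replicate 3 stood apart. It held 68.1 CPM of Slc17a7, the glutamate transporter of cortical and basolateral amygdala neurons, against at most 3.33 CPM in any fentanyl library. It also held 176 counts of Oxt, the hypothalamic peptide oxytocin, where the other 15 libraries held 1 count together.

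Of the 10 markers, 3 were all but undetected. Shox2 had 9 counts over the 16 libraries, with 5 in fentanyl and 4 in saline libraries and no more than 3 in any library. Sim1 had 3 counts in fentanyl and 8 in saline libraries, and 6 of the 8 were in saline male replicate 3, the library with the oxytocin counts. Otp had 4 counts in fentanyl libraries and 1 in saline libraries. All 3 genes fell below the filter on low counts (about 0.603 CPM, or 10 counts in a library of median size, in enough libraries), so 7 of the 10 were tested.

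The label of hypothalamic neurons was therefore not borne out by Sim1 and Otp, nor by the other hypothalamic genes. Of 22 further hypothalamic genes, 20 averaged under 1 CPM, and Pmch, Hmx2 and Hmx3 had no count in any library. The 2 above 1 CPM were Nkx2-1, a transcription factor that basal forebrain and striatal interneurons also use, and Trh, the precursor of thyrotropin-releasing hormone. Of 7 habenular genes, 6 averaged under 1 CPM, and only Gng8 was above. Among 12 further thalamic genes just Lhx9 averaged under 1 CPM, but most of the others, such as the nuclear receptor Rora, are also made in other brain regions. Gbx2, a thalamic homeobox gene, averaged 1.58 CPM in fentanyl libraries and 2.11 CPM in saline libraries.

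Slc17a6 varied widely between libraries, and its lowest level, in fentanyl female replicate 1, rests on 3 reads. In fentanyl males its level was 0.359 CPM at the lowest, 3.21 at the median and 6.93 at the highest, and in saline males 0.290, 5.83 and 14.9 CPM. The fentanyl females had 0.167 and 1.56 CPM, and the saline females 2.31 and 1.69 CPM. The highest value belonged to saline male replicate 3, and the 3 lowest to fentanyl female replicate 1, saline male replicate 2 and fentanyl male replicate 2; low values thus came from both exposures.

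Tcf7l2 was even among fentanyl males, at 14.8 CPM at the lowest, 17.3 at the median and 17.7 at the highest, against 9.91, 21.0 and 27.9 CPM in saline males. Fentanyl females had 10.6 and 7.24 CPM, and saline females 18.3 and 14.999 CPM. The saline males thus lay on both sides of the fentanyl males, with none between them. Lef1, the other Wnt pathway protein, had 5.20, 5.75 and 10.9 CPM at the lowest, median and highest of the fentanyl males and 3.94, 5.90 and 7.60 CPM in saline males. Its 10.9 CPM came from fentanyl male replicate 2, and the remaining fentanyl males lay within the range of the saline males. In females Lef1 stood at 5.74 and 5.52 CPM after fentanyl and 5.56 and 6.72 CPM after saline.

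Prox1 had a lowest, median and highest level of 4.31, 10.4 and 11.7 CPM in fentanyl males and 4.46, 9.61 and 14.7 CPM in saline males. Fentanyl females had 9.25 and 2.31 CPM and saline females 12.3 and 20.1 CPM, so that the females held both the lowest and the highest Prox1 level of the series. Within fentanyl males, replicate 2 alone was under 8.95 CPM.

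Among the Zic genes, Zic1 had 6.90, 8.20 and 10.9 CPM at the lowest, median and highest of the fentanyl males and 3.88, 8.83 and 17.7 CPM in saline males, with 4.18 and 7.08 CPM in fentanyl females and 4.93 and 10.7 CPM in saline females. Zic4 had 0.973, 1.31 and 1.87 CPM in fentanyl males and 0.116, 1.47 and 2.18 CPM in saline males. In females Zic4 was at 0.557 and 0.858 CPM after fentanyl and 1.06 and 1.95 CPM after saline. Saline male replicate 2 was the lowest library for both genes. The spans of Zic1 and Zic4 overlap on chromosome 8 in the RefSeq annotation of GRCr8, and the strand setting of the counting is not given, so reads of the shared stretch may not be told apart and both levels are uncertain. Zic2 had 2.97, 4.004 and 7.84 CPM in fentanyl males and 3.06, 3.54 and 4.66 CPM in saline males. Its females had 3.74 and 5.69 CPM after fentanyl and 3.56 and 3.20 CPM after saline, and its highest library was again fentanyl male replicate 2.

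**Figure D1:**
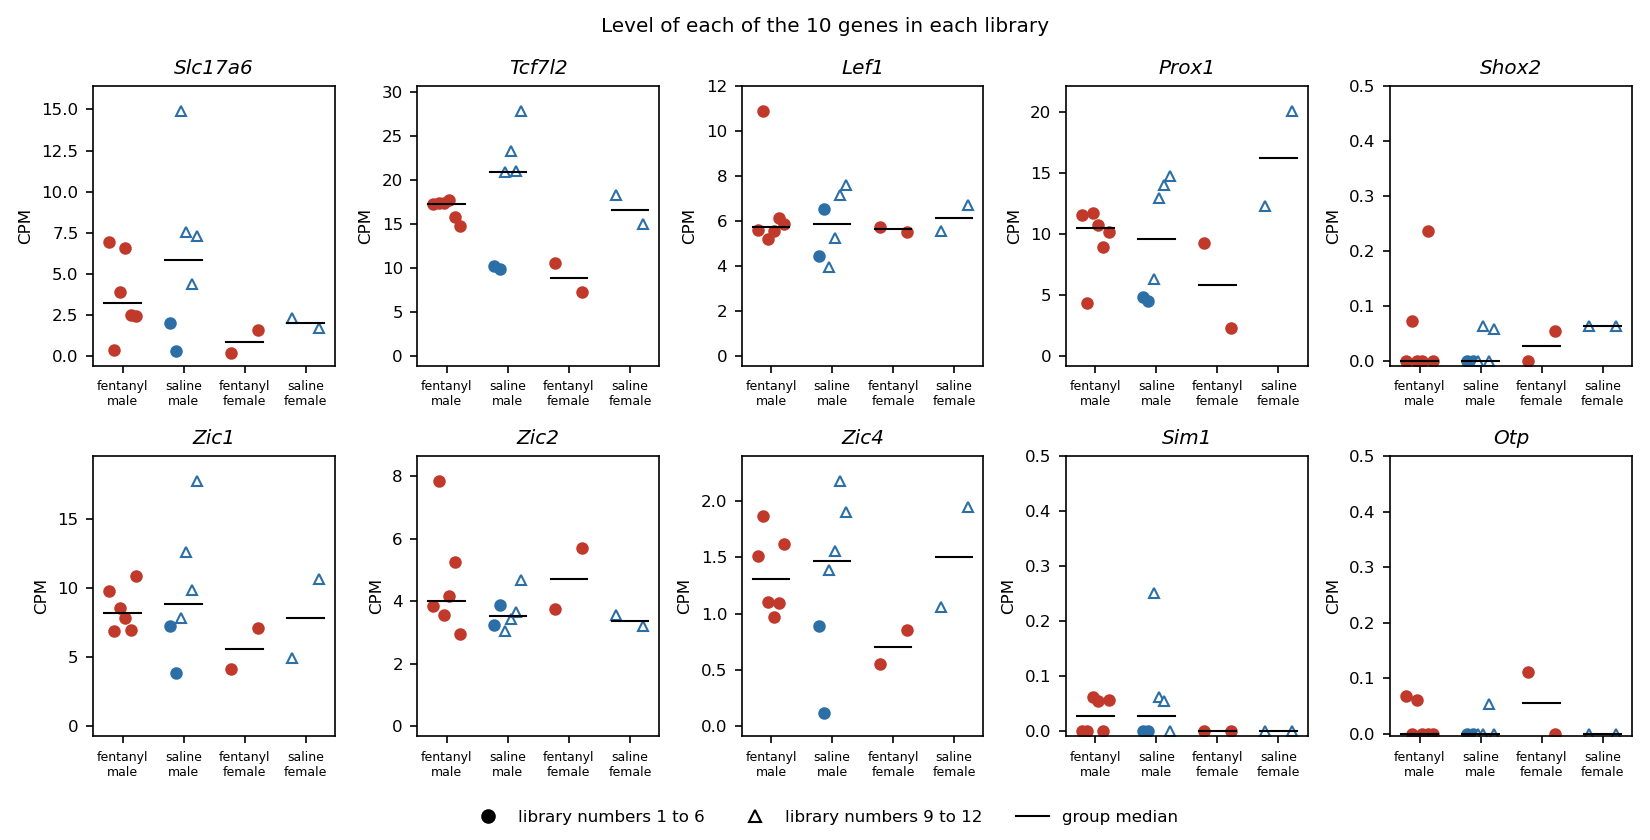
Level of each of the 10 genes in CPM (vertical axes, each with its own range) in each library, with fentanyl in red and saline in blue, groups side by side, and a line at the group median. Filled circles are library numbers 1 to 6 and open triangles 9 to 12; for Slc17a6, Tcf7l2, Prox1, Zic1 and Zic4 all 4 saline males of numbers 9 to 12 lie above both saline males of numbers 1 and 2, and Shox2, Sim1 and Otp stay below 0.3 CPM.

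No tested marker differed between fentanyl and saline libraries over both sexes by edgeR's quasi-likelihood test with sex as a term, while 14 of the 17856 genes tested did (0.0784%). None of the 7 had an unadjusted p under 0.05, against 7.27% of all genes, and DESeq2 and limma voom called none of them either. The fold changes of Slc17a6, Tcf7l2, Prox1, Zic1 and Zic4 were below 0 and those of Lef1 and Zic2 above 0, with a median of -0.28 on the log2 scale, against -0.01 over all genes, of which 52.3% were below 0. In bulk tissue, fewer cells that make a gene and less RNA of it per cell cannot be told apart.

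Zic2 averaged 4.63 ± 1.58 CPM in fentanyl libraries and 3.58 ± 0.510 CPM in saline libraries (SD, n = 8 each). Its log2 fold change was 0.37 with a standard error of 0.18 (adjusted p = 0.725, edgeR), and it was 0.22 without fentanyl male replicate 2 and 0.098 by limma voom. Tcf7l2 averaged 14.8 ± 3.86 CPM in fentanyl libraries and 18.3 ± 6.31 CPM in saline libraries, with a fold change of -0.35 ± 0.20 on the log2 scale (adjusted p = 0.755, edgeR). Slc17a6 averaged 3.06 ± 2.58 CPM in fentanyl libraries and 5.05 ± 4.79 CPM in saline libraries, with a fold change of -0.79 ± 0.58 on the log2 scale (adjusted p = 0.812, edgeR). The groups overlapped for all 7 genes, as they did for all but 0.101% of genes tested. Without saline male replicate 3 the Slc17a6 fold change was -0.41. The adjusted p of Lef1, Prox1, Zic1 and Zic4 lay between 0.829 and 0.913 in the same edgeR test. With no filter on low counts, the edgeR test gave Shox2, Sim1 and Otp adjusted p of 0.934, 0.785 and 0.774, and at this depth no difference between them was detectable.

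In males none of the 7 markers was called, with 7 genes called of all tested (0.0392%), none of the 7 markers at an unadjusted p under 0.05 (4.13% of all genes), and none by DESeq2 or limma voom. Prox1 was level in males, at 9.56 ± 2.76 CPM after fentanyl and 9.53 ± 4.84 CPM after saline (SD, n = 6 each).

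In females no marker and no gene at all was called by edgeR (0%), and DESeq2 and limma voom called none of the markers. Tcf7l2 had a log2 fold change of -0.90 ± 0.39 and Prox1 of -1.49 ± 0.65, and these 2 markers had an unadjusted p under 0.05, as 14.3% of all genes did. Their adjusted p in edgeR's quasi-likelihood test were 0.339 and 0.342. The Prox1 value in females was -2.81 without fentanyl female replicate 1 and -0.81 without fentanyl female replicate 2. The 2 female groups did not overlap for 5 of the 7 markers, Slc17a6, Tcf7l2, Prox1, Zic2 and Zic4, nor for 48.8% of all genes. Female fold changes were below 0 for 6 of the 7, with a median of -0.90, against 50.6% of all genes and a median of -0.01. Several other lists lay to 1 side of 0 in females, with 0 genes called in each. Below 0 were all 10 myelin genes (median -1.05), all 6 genes of differentiating oligodendrocytes (-0.76), all 7 astrocyte genes (-0.63) and all 6 cholinergic and basal forebrain genes (-0.58). Above 0 were 7 of the 8 central amygdala genes (median 1.19) and all 12 striatal spiny neuron genes (0.82). The part of these cells in the female values of Tcf7l2 and Prox1 was not tested. Whether the exposure difference itself differed between the sexes was tested in the fit of all 4 groups, and none of the 7 markers was called, nor any gene (0%), with 8.23% of genes and none of the markers under an unadjusted p of 0.05. The closest was Prox1, whose log2 fold change in females minus that in males was -1.49 ± 0.74 (adjusted p = 0.570, edgeR).

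The saline males fell into 2 sets by the library numbers in the labels, 1 and 2 in the first set and 9 to 12 in the second, while all fentanyl males have numbers from 1 to 6. What the numbers stand for is not given. For 5 of the 7 tested markers, Slc17a6, Tcf7l2, Prox1, Zic1 and Zic4, every saline male of numbers 9 to 12 lay above both saline males of numbers 1 and 2, as 22.2% of all genes did. Lef1 and Zic2 overlapped between the sets.

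For Tcf7l2 the fentanyl males lay between the sets. The 6 fentanyl males were at 14.8 to 17.7 CPM, against 20.9, 23.3, 21.0 and 27.9 CPM in saline males of numbers 9 to 12 and 10.2 and 9.91 CPM in saline males of numbers 1 and 2. Such a place between the sets was found for 0.409% of all genes tested and for no other marker. Set against saline males of numbers 1 and 2 alone, the 6 fentanyl males had a Tcf7l2 log2 fold change of 0.73 ± 0.16 (adjusted p = 0.0251, edgeR), and 3.34% of the genes in that fit were called higher. Set against saline males of numbers 9 to 12 alone, they had a log2 fold change of -0.47 ± 0.12 (adjusted p = 0.0972, edgeR), with 0.0788% of genes called lower. Over both sexes without saline males 1 and 2, Tcf7l2 was called lower, at -0.59 ± 0.11 (adjusted p = 0.00849, edgeR), with 2.67% of genes called lower. Over both sexes without saline males 9 to 12 its log2 fold change was 0.041 ± 0.27 (adjusted p = 0.999, edgeR), with 0.0229% of genes called. Within numbers 1 and 2, the 2 fentanyl males had 17.3 and 17.4 CPM and the 2 saline males 10.2 and 9.91 CPM. The 2 fentanyl females, also of numbers 1 and 2, had 10.6 and 7.24 CPM. No other number occurs in males of both exposures. The direction of the Tcf7l2 difference thus turned with the set of saline males, and exposure and library number cannot be told apart for the rest of the males. The same holds for the females, whose numbers are 1 and 2 after fentanyl and 10 and 11 after saline, and so for the comparison over both sexes without saline males 1 and 2, in which every saline library has a number from 9 to 12 and every fentanyl library one from 1 to 6.

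Slc17a6 turned in the same way in males, with a log2 fold change of 1.77 ± 0.95 against saline males 1 and 2 and -1.17 ± 0.54 against saline males 9 to 12, as did Prox1 (1.04 ± 0.47 and -0.31 ± 0.34), Zic1 (0.61 ± 0.33 and -0.48 ± 0.25) and Zic4 (1.47 ± 0.56 and -0.36 ± 0.25). None of these 4 genes was called in either setting. Zic2 kept its sign, at 0.36 ± 0.34 and 0.32 ± 0.25, as did Lef1, at 0.24 ± 0.28 and 0.14 ± 0.23.

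**Figure D2:**
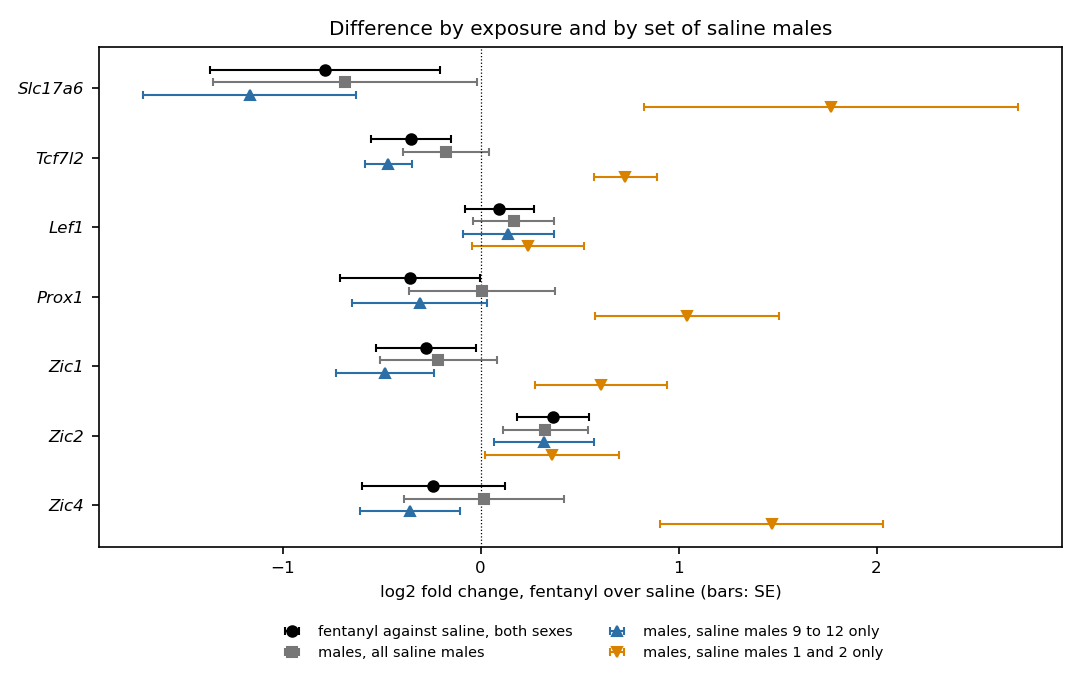
Log2 fold change of fentanyl over saline for the 7 tested genes, with bars of 1 standard error, over both sexes (black), in males (grey), and in males with saline males of library numbers 9 to 12 only (blue) or 1 and 2 only (orange). For Slc17a6, Tcf7l2, Prox1, Zic1 and Zic4 the orange and blue values lie on opposite sides of 0, and Tcf7l2 goes between 0.73 and -0.47.

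The 7 tested markers did not move as a block from library to library. Of the 21 pairs, 5 correlated over the 16 libraries by both Pearson's r and Spearman's rho of log2 CPM (two-sided permutation tests, adjusted over the 21 pairs), all 5 with a positive sign, and each had the same sign within fentanyl and within saline libraries. Zic1 and Zic4, whose spans overlap, had r = 0.77 (adjusted permutation p = 0.0044) and rho = 0.74 (adjusted permutation p = 0.0168). Their r was 0.74 within fentanyl libraries, 0.79 within saline libraries, and 0.73 without the 2 libraries farthest from the median of Zic1.

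Slc17a6 and Tcf7l2 had r = 0.65 and rho = 0.76 (adjusted permutation p = 0.0231 and 0.0168), with r = 0.42 in fentanyl libraries, 0.83 in saline libraries, and 0.52 without the 2 farthest libraries. Slc17a6 and Zic1 had r = 0.69 and rho = 0.67 (adjusted permutation p = 0.0231 and 0.0277), and r = 0.42 without the 2 farthest libraries. Tcf7l2 and Zic4 had r = 0.65 and rho = 0.61 (adjusted permutation p = 0.0231 and 0.0432), and r = 0.65 but rho = 0.43 without the 2 farthest. Tcf7l2 and Prox1 had r = 0.69 and rho = 0.61 with the same adjusted permutation p, but r = 0.38 without the 2 farthest libraries, so this relation rests in part on those libraries. Scaling by median ratios in place of TMM took Tcf7l2 with Prox1 and Tcf7l2 with Zic4 out of the 5, at r = 0.68 and 0.65. Lef1 and Zic2 stood outside this group. They correlated with each other by r (0.68, adjusted permutation p = 0.0231) but not by rho (0.45, adjusted permutation p = 0.155), and r was 0.22 without the 2 farthest libraries, so that relation rests on those libraries.

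**Figure D3:**
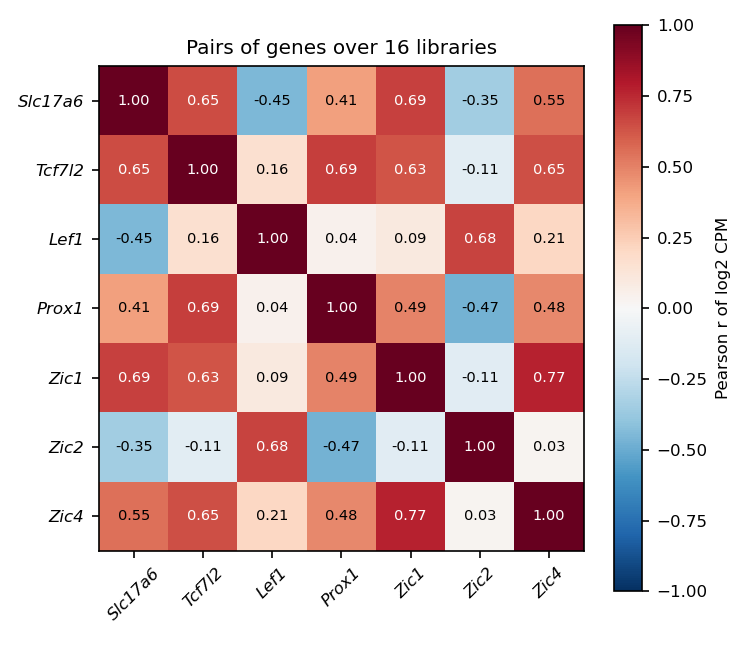
Pearson's r of log2 CPM over the 16 libraries for each pair of the 7 tested genes, in red for positive and blue for negative values, with the value in each cell. Slc17a6, Tcf7l2, Prox1, Zic1 and Zic4 are positively related throughout, from 0.41 to 0.77, whereas Zic2 is near or below 0 with each of them.

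The promoters of 7 of the 10 genes are in the RefSeq table of GRCr8 used here. They were searched over the 250 bases before the start of the gene for 4 forms of the core bound by Tcf7l2 and Lef1, on both strands. The forms are written ATCAAAG for the first, TTCAAAG for the second, AACAAAG for the third and TACAAAG for the fourth. A match was found in 2 of the 7 (28.6%), Slc17a6 and Zic4, and in 14.9% of the 33469 promoters of that length. A match is a description of letters, not a binding site. The 2 windows are shown because they hold the only matches among the markers, with the match in capitals. The Slc17a6 window is chr1:110348197-110348446, plus strand, with its match 25 bases before the start, in the reverse orientation (the first form on the minus strand). The Zic4 window is chr8:100795852-100796101, plus strand, with its match 54 bases before the start.
Slc17a6: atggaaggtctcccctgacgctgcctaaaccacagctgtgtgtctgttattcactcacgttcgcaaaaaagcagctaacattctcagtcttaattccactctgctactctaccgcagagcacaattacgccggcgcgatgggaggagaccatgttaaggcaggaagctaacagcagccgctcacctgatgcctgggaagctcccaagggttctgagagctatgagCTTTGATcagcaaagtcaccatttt
Zic4: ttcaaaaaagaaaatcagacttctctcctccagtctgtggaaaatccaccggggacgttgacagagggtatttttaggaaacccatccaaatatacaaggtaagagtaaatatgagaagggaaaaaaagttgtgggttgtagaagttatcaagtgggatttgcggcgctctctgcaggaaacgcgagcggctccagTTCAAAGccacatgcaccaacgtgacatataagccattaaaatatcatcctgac

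Each marker was next set beside the mean log2 CPM of 17 lists of genes known from other cell types and regions. This makes 119 relations, of which 19 passed by both r and rho after adjustment. The relations were chosen after the data were seen, so their adjusted p are descriptions, not tests of a question set beforehand. The permutations exchanged all libraries freely, without regard to exposure, sex or library number. Slc17a6 followed genes of the medial amygdala, the sex-steroid sensitive nucleus beside the central one (Lhx6, Esr1 and Cyp19a1 are among the 4 tested), with r = 0.90 and rho = 0.96 (adjusted permutation p = 5.95e-04 and 7.93e-04). Its r was 0.93 within fentanyl libraries and 0.94 within saline libraries, and it was 0.87 without the 2 farthest libraries. With the other thalamic genes Slc17a6 had r = 0.66 (adjusted permutation p = 0.0321) but rho = 0.53 (adjusted permutation p = 0.103). With other hypothalamic genes, most of which averaged under 1 CPM, it had r = 0.31. The thalamic gene Gbx2 was highest in fentanyl male replicate 1 and saline male replicates 3, 6 and 4, the libraries also highest for Slc17a6. Both genes were lowest in fentanyl male replicate 2, fentanyl female replicate 1 and saline male replicate 2. Gbx2 by itself was not tested against Slc17a6. The same medial amygdala list also passed with Tcf7l2 (r = 0.67, rho = 0.68) and with Zic1 (r = 0.65, rho = 0.79). Slc17a6 also went with cholinergic and basal forebrain genes (r = 0.80, rho = 0.88) and with interneuron genes such as Adarb2 and Npas1 (r = 0.78, rho = 0.76), and ran against striatal spiny neuron genes (r = -0.70, rho = -0.78).

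Zic1 followed cholinergic and basal forebrain genes, which include Chat, the enzyme that makes acetylcholine, with r = 0.89 and rho = 0.81 (adjusted permutation p = 5.95e-04 and 0.00803). It did so at r = 0.90 within fentanyl libraries and 0.88 within saline libraries. Tcf7l2 followed the same list (r = 0.79, rho = 0.69) and ran against the striatal genes, with r = -0.84 and rho = -0.88, and the telencephalic GABA neuron genes, with r = -0.66 and rho = -0.67, while its r with the other thalamic genes was -0.01. Summed over 12 genes, the striatal list itself ranged from 5479 to 11344 CPM in fentanyl libraries and from 2409 to 9057 CPM in saline libraries, and its lowest library, saline male replicate 6, was the highest for Tcf7l2 and Zic1.

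Prox1 went with glia. Its r with genes of differentiating oligodendrocytes was 0.83 and its rho 0.84 (adjusted permutation p = 0.00258 and 0.00416), with r = 0.65 in fentanyl libraries, 0.98 in saline libraries and 0.94 without the 2 farthest libraries. It had r = 0.85 with astrocyte genes and 0.79 with myelin genes, and 0.64 with the 2 dentate granule cell genes that were tested. Tcf7l2 also went with the differentiating oligodendrocyte list and the myelin list, at r = 0.75 for each, and Zic4 with the differentiating oligodendrocyte list at r = 0.66. Lef1 followed endothelial genes such as Cldn5 and Flt1, a list that also holds the Wnt pathway targets Apcdd1 and Axin2, with r = 0.89 and rho = 0.74 (adjusted permutation p = 8.92e-04 and 0.0112), at r = 0.89 within fentanyl libraries, 0.90 within saline libraries and 0.67 without the 2 farthest libraries. Fentanyl male replicate 2, the library with the most Lef1, also had the highest endothelial sum, 436 CPM. Lef1 ran against the central amygdala genes (r = -0.70, rho = -0.70). With the other thalamic genes Lef1 had r = -0.65 but rho = -0.49 (adjusted permutation p = 0.0450 and 0.137). Zic2 passed with no list by both measures, and came closest with the endothelial list (r = 0.76, rho = 0.56; adjusted permutation p = 0.0104 and 0.0839).

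**Figure D4:**
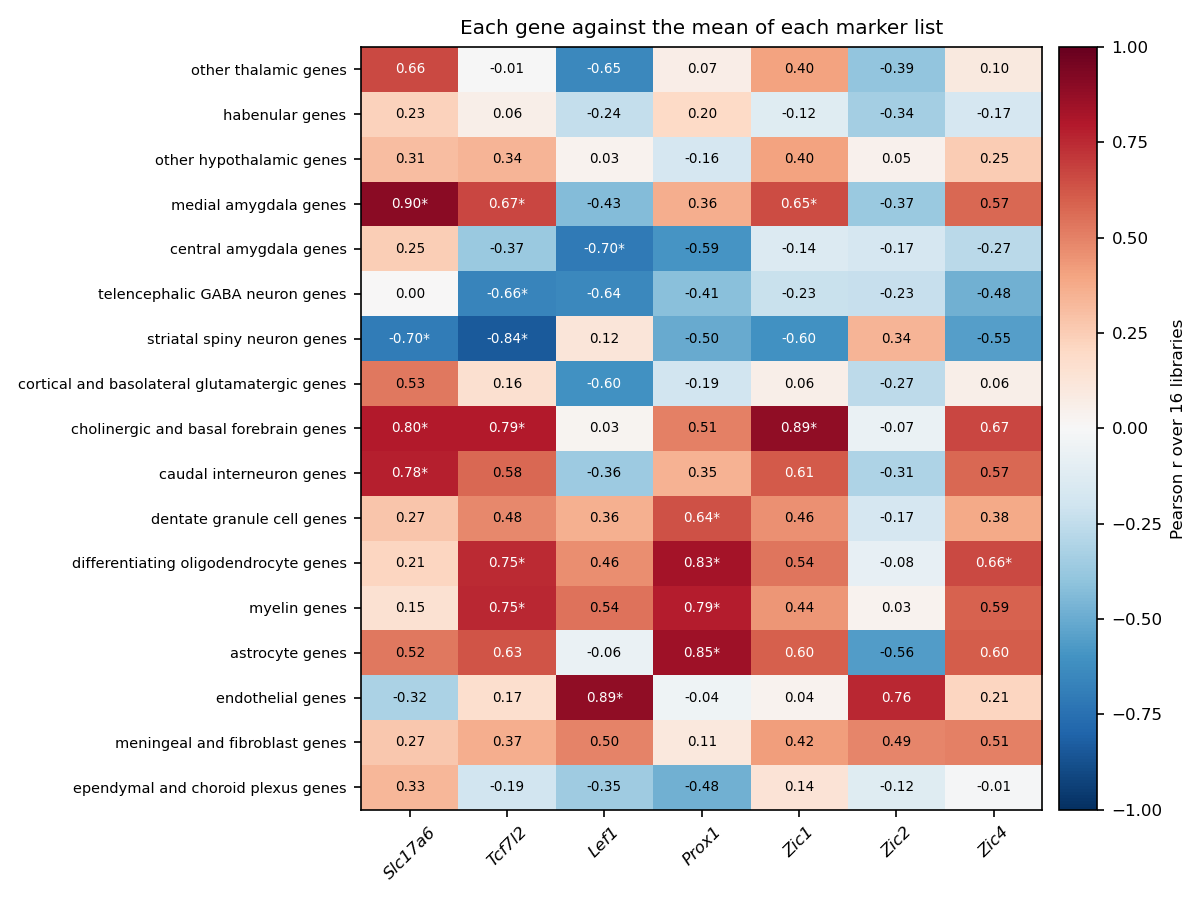
Pearson's r over the 16 libraries between the log2 CPM of each tested gene (columns) and the mean log2 CPM of each marker list (lines), red for positive and blue for negative; an asterisk marks the 19 relations that passed by both Pearson's r and Spearman's rho after adjustment. The other thalamic, habenular and other hypothalamic lists hold no asterisk. The medial amygdala list reaches 0.90 with Slc17a6 and the endothelial list 0.89 with Lef1. Tested habenular genes other than Gng8, and tested other hypothalamic genes other than Trh and Nkx2-1, averaged under 1 CPM. The means of those lists thus rest mostly on few reads, and their missing asterisks decide little.

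**Figure D5:**
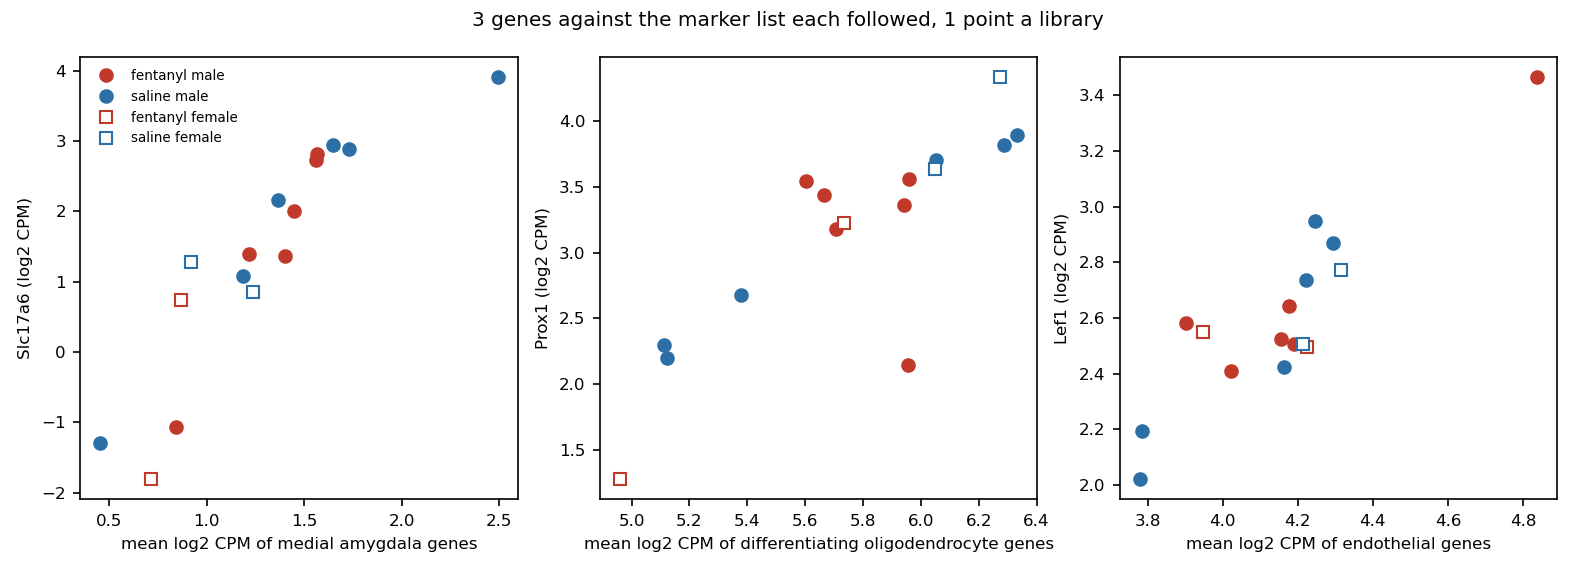
Log2 CPM of Slc17a6, Prox1 and Lef1 (vertical axes) against the mean log2 CPM of medial amygdala, differentiating oligodendrocyte and endothelial genes (horizontal axes), 1 point a library, with fentanyl in red, saline in blue, males filled and females open. Fentanyl and saline points lie along the same band in the first panel (r = 0.90), and fentanyl male replicate 2 lies off the band of Prox1 and at the top of that of Lef1.

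None of these lists held a gene called between fentanyl and saline libraries over both sexes. Of the 11 tested among the other thalamic genes, 7 had a fold change above 0 and 4 below, with a median of 0.04, and of the 7 tested other hypothalamic genes 4 were above and 3 below, with a median of 0.11. The 4 tested medial amygdala genes were all below 0, with a median of -0.30, and so were the 6 cholinergic and basal forebrain genes, with a median of -0.32. All 12 striatal spiny neuron genes were above 0, with a median of 0.55. These lists share their libraries with the markers, and their part in the marker values was not tested.

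The genes whose order over the 16 libraries was most like that of a marker were taken from 15500 genes by Spearman's rho, as a description. For Slc17a6 they were Gng4 (rho = 0.94), Igf1 (0.94) and Eps8 (0.94), and for Tcf7l2 LOC120100087 (0.95), Tmem163 (0.94) and Ctbp2 (0.94). For Prox1 they were Edil3 (0.99), Fryl (0.97) and Rapgef4 (0.97), for Zic1 Cds1 (0.94), Vapb (0.94) and Slc45a4 (0.92), and for Zic4 Afap1l2 (0.96), Pnpla7 (0.94) and Anks1a (0.93). The likeness was lower for Lef1, with Cdr2 (0.87), Pnrc2 (0.83) and LOC120097421 (0.82), and for Zic2, with Rbms1 (0.86) and Gatc (0.86) among its 3. No other marker was among the 3 genes most like any marker.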

How the data were processed

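The members and lists were chosen with earlier results of these data known, and the relations of markers to lists were chosen after the data were seen. Trizol RNA was selected for poly(A) and made into NEBNext libraries, per the labels' protocols. The tools named, per the submitters' processing notes, are DESeq2, HTSeq, STAR and Trimmomatic, and the build is rn7. The sources used here give no versions, annotation or strand setting. The deposited counts are whole reads per gene with no normalization by the authors, in 1 table, and its columns were matched to samples by library name. In all, 5345 genes had no count. The 16 libraries were kept as separate samples, since the smallest chi-square per gene over their 120 pairs was 3.68.

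Counts were tested in R 4.3.3 with edgeR 4.0.16 (filterByExpr with the 4 groups, TMM, robust glmQLFit and glmQLFTest), which left 17856 genes. Benjamini-Hochberg adjustment over all of them had a threshold of 0.05. Sex was a term over both sexes, and the comparisons in males, females and between the sexes were contrasts of the 4 groups, so groups of 2 shared the spread of all 4. Log2 CPM had a prior count of 2. Correlations used 100000 permutations (SciPy 1.17.1, NumPy 2.4.6), two-sided, with seed 1, adjusted over 21 pairs or 119 relations. Alternatives were DESeq2 1.42.0, limma 3.58.1 (voom with quality weights), median-ratio scaling, no filter, a replicate block, fits of 1 sex, each library left out, and each set of saline males left out. The fit was tested on simulated data. All 10 markers were named, with the 3 genes most like each by rho and at least 1 CPM on average. In lists, up to 2 genes with the smallest p could be named, and others that define a cell type were picked with their values known. Names and positions came from RefSeq (GRCr8), in which all 10 symbols were found, while no coordinate of rn7 was used. Some genes of the lists are not reported here.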

Additional observations from a re-analysis of the deposited data

Results flagged for a closer look

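In 28 groups of 6 or 8 libraries looked at for the 7 tested markers, 3 times a level lay far from the rest of its group, and chance gives about 1 in 20 groups. These were 2 distinct levels, both in fentanyl male replicate 2, and the Lef1 level counted in 2 groups, of which the larger contains the smaller. Its Lef1 level of 10.9 CPM was far above the next of the 6 fentanyl males, 6.12 CPM, and it stood out again among the 8 fentanyl libraries of both sexes, at 10.9 CPM. Its Prox1 level of 4.31 CPM was far below the next of the 6 fentanyl males, 8.95 CPM. The same library had the highest mitochondrial share of the series (17.7%), the highest summed levels of endothelial genes (436 CPM, with the next library at 281) and of myelin genes (34453 CPM). The part of these in its Lef1 and Prox1 levels was not tested. Without this library the Lef1 log2 fold change over both sexes was -0.050, against 0.09 with it.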

How the results depend on the processing

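Over both sexes 14 genes were called. DESeq2 called 87, limma voom 1031, the fit with a replicate block 2, the fit without saline males 9 to 12 called 4, the fit without saline males 1 and 2 called 1226, and leaving out 1 library gave 9 (without fentanyl male replicate 6) to 29 (without saline male replicate 2). In males 7 were called. DESeq2 called 42 and limma voom 87, the replicate block left 3, the fit without saline males 9 to 12 gave 955 and that without saline males 1 and 2 gave 71, with 4 to 9 with 1 library left out (4 without saline male replicate 4). In females 0 were called, against 20 by DESeq2, 65 in a fit of females alone, and 0 to 5 with 1 library left out (5 without saline male replicate 5, 1 without fentanyl female replicate 2 or saline male replicate 3). Among the 7 markers, 0 were called in each of these settings except 1, Tcf7l2, in males without saline males 9 to 12 and 1, again Tcf7l2, over both sexes without saline males 1 and 2. Pairs of markers that passed numbered 5, and 3 with median-ratio scaling.

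Signs turned for log2 fold changes that were not called with all libraries in. Under limma voom these were Lef1 over both sexes (-0.032) and, in males, Prox1 (-0.080) and Zic4 (-0.20). Without saline males 9 to 12 they were Slc17a6 (0.52), Tcf7l2 (0.041), Zic1 (0.16) and Zic4 (0.29) over both sexes and Slc17a6 (1.77), Tcf7l2 (0.73) and Zic1 (0.61) in males. Without saline males 1 and 2 they were Prox1 (-0.31) and Zic4 (-0.36) in males. With 1 library left out, Lef1 ranged from -0.050 to 0.16 over both sexes and -0.029 to 0.26 in males (below 0 without fentanyl male replicate 2) and from -0.25 to 0.013 in females, and Zic1 from -0.92 to 0.18 in females (both above 0 without saline female replicate 2) and -0.38 to 0.039 in males (above 0 without saline male replicate 6). Prox1 in males ranged from -0.14 to 0.18 (below 0 without fentanyl male replicate 1, 3, 4 or 6 or saline male replicate 1, 2 or 3) and Zic4 in males from -0.22 to 0.21 (below 0 without fentanyl male replicate 1, 2 or 6 or saline male replicate 1 or 2). The cause was not tested.

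The replicate numbers did not pair the libraries: same-numbered males had correlations of -0.07 to 0.21 and females -0.17, and of the fentanyl males only replicate 3 was most like the saline male of its number. In groups of 2 females the smallest markers rest on few reads (16 at most for Zic4 in fentanyl females).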

Other observations

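Saline male replicate 3 carried transcripts of several other cell types beside its Slc17a6 level of 14.9 CPM. Calb2, the calcium-binding protein calretinin, was at 32.5 CPM there, against at most 15.4 CPM in a fentanyl library (replicate 1 of the males) and 7.71 CPM in another saline library. Gal, the peptide galanin, had 53 counts there, against at most 9 in a fentanyl library and 12 in another saline library. Avp, the peptide vasopressin, had 14 counts there, against at most 6 in a fentanyl library and 8 in another saline library. Its Tcf7l2, Lef1, Prox1, Zic1, Zic2 and Zic4 levels were not the highest of any of these genes, and its Lef1 level of 3.94 CPM was the lowest of the 16 libraries. Central amygdala genes were not low in saline male replicate 3. Their mean log2 CPM there, 6.02, was the highest of the 16 libraries. Their summed level there was 1620 CPM, below the highest sum of 3624 CPM in fentanyl female replicate 2.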
